A study of Mus musculus with 4 samples.

Results

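The genes of CTCF, of cohesin and of the proteins that load, release and acetylate cohesin were examined on both alleles of F123-ESCs. F123-ESCs are male mouse embryonic stem cells from an F1 cross, in which one copy of each autosome is maternal and of the S129 strain and the other is paternal and of the CAST strain. The members were taken from the table of gene expression by their MGI symbols, and all 10 were found among the 24026 genes: Ctcf, Smc3, Rad21, Stag1, Nipbl, Mau2, Wapl, Pds5a, Pds5b and Esco2. The 4 RNAseq libraries, replicates 1 to 4, are all of untreated cells of the S129/CAST genotype, so the comparisons are between alleles, between libraries and between genes. The cells had been grown on inactivated feeder fibroblasts in medium with LIF, passaged at least 2 times without feeders, and harvested about 48 h after plating. F123 is a single line, so which allele is maternal and which strain it comes from cannot be told apart. Nothing in the labels says that the libraries came from separate cultures, so p-values measure the spread between these libraries, which may be technical.

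CTCF is a zinc finger protein that binds DNA and marks most boundaries and loop anchors of mammalian chromosomes. Cohesin is a ring that holds sister chromatids together and, during interphase, extrudes chromatin into loops until it meets CTCF. NIPBL and MAU2 load it, WAPL together with the PDS5 proteins releases it, and ESCO acetyltransferases modify SMC3 so that the ring stays on chromatin. In embryonic stem cells these proteins are broadly expressed.

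Values are RPKM of each allele, that is, reads per kilobase of gene, scaled to the total reads of that allele. Only reads over a SNP between the strains could be assigned. Reads that cover no SNP enter no value, so levels of different genes also depend on how many SNPs they hold, which was not analysed here. Read numbers were recovered from the spacing of the RPKM values and came to 34120416 to 56627972 assigned reads per library, with replicate 4 the shallowest. All 7 markers of embryonic stem cells were above 1 RPKM, and their sum was 1171 to 1483 RPKM. Of 7 feeder fibroblast markers, 5 were above 1 RPKM with a sum of 178 to 224 RPKM, most of it from Col1a2 at 166 ± 17.5 RPKM (SD, n = 4), while Lum stood at 0.046 RPKM. Of 5 primitive endoderm markers, 3 were above 1 RPKM, and their sum was 45.0 to 52.2 RPKM. None of these markers was at 0, and their part in the values below was not tested.

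Promoter windows were taken from RefSeq on GRCm38.p6, as the 250 bases before an annotated start, and 7 of the 10 genes matched, with 8 windows. Rad21, Nipbl and Esco2 had no match. The windows of Ctcf, Stag1 and Pds5a are shown because, among the genes with a window, they were the ones that passed the test between the alleles, and that of Mau2 because it stood apart in CpG content; capitals mark CpG. The Ctcf window is at chr8:105636288-105636537 on the plus strand, that of Stag1 at chr9:100643198-100643447 on the plus strand, that of Pds5a at chr5:65698237-65698486 on the minus strand and that of Mau2 at chr8:70042735-70042984 on the minus strand. The RefSeq start of Stag1 lies inside the longer gene of GENCODE M21. The window of Pds5a, and that of Pds5b, which is not printed, also run partly into their GENCODE M21 genes.
Ctcf: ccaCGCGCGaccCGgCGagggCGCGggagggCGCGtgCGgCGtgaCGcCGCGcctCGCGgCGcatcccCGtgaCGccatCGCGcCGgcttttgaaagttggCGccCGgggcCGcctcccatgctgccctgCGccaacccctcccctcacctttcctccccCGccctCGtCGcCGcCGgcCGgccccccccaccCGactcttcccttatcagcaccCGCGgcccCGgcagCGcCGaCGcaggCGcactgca
Stag1: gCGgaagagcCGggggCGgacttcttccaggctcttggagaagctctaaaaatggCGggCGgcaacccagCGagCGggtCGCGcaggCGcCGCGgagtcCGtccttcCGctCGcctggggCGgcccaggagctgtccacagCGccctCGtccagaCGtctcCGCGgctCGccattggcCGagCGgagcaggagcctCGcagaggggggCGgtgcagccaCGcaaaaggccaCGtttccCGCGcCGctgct
Pds5a: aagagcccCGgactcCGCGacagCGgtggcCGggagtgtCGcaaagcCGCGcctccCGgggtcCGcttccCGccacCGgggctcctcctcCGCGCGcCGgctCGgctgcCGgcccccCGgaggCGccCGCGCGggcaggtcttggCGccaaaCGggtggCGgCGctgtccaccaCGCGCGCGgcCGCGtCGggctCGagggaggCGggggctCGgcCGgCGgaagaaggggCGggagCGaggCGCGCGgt
Mau2: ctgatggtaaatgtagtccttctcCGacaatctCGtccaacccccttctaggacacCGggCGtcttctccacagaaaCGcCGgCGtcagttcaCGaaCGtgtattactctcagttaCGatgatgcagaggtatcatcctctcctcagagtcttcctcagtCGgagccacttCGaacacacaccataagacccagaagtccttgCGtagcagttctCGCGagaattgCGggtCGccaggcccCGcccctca

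These windows are rich in CpG. Pds5a held 44 CpG and Ctcf 40, more than 99.5% and 98.7% of the 32851 windows of all genes, and Stag1 held 31. The windows of Pds5b, Wapl and Smc3 held 36, 32 and 26. Mau2 held 18 at the start shown and 1 at a second start inside the gene. The median was 6 over all windows and 15 over the 13135 windows of genes tested between the alleles. No member window held CAGNNGGCG, a core of the CTCF motif, GCATGCGC, a part of the NRF1 motif, or CCGGAAG, an ETS core, on either strand. These letters are found in 6.81%, 2.26% and 6.91% of all windows, and no match says only that these letters are not in the member windows.

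CTCF itself was expressed at a moderate level. Ctcf (ENSMUSG00000005698; chromosome 8, 105636568 to 105682922 in mm10, plus strand) had 10.3, 12.1, 10.9 and 9.87 RPKM in replicates 1 to 4 as the mean of both alleles. Its mean of 10.8 ± 1.00 RPKM (SD, n = 4) was above 76.5% of all genes and 73.3% of protein-coding genes. The median of the protein-coding genes tested between the alleles was 8.47 RPKM. These ranks rest on the deposited gene length, and over all annotated exons the level of Ctcf was 3.45 RPKM. The Ctcf values rested on 234 to 501 reads per allele and library, the fewest of the members. Agrp and the long RNA Gm5914 overlap its first bases on the opposite strand by 826 and 918 bases in GENCODE M21. Whether strand was used in counting is not stated, so reads of that stretch cannot be assigned to one gene. In bulk libraries such as these, a lower level in every cell and fewer cells that express a gene cannot be told apart.

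The core ring genes Smc3 and Rad21 were among the more abundant. Smc3, the ATPase that ESCO enzymes acetylate (ENSMUSG00000024974; chromosome 19, 53600398 to 53645833), had 174, 187, 195 and 157 RPKM in replicates 1 to 4. Rad21, the subunit that closes the ring and is cut at anaphase (ENSMUSG00000022314; chromosome 15, 51962240 to 51991747), had 51.3, 57.1, 61.6 and 48.5 RPKM. Stag1, which binds RAD21 and contacts CTCF (ENSMUSG00000037286; chromosome 9, 100597798 to 100959375), had 74.2, 75.8, 78.8 and 59.2 RPKM. All of these were highest in replicate 3 and lowest in replicate 4.

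Of the loader genes, Nipbl had the lowest level of the members and Mau2 ranked eighth. Nipbl, the large subunit that stimulates the cohesin ATPase (ENSMUSG00000022141; chromosome 15, 8290617 to 8444463), had 2.65, 3.01, 3.37 and 2.86 RPKM in replicates 1 to 4. Its partner Mau2 (ENSMUSG00000031858; chromosome 8, 70016123 to 70042734) had 6.91, 8.35, 8.66 and 7.16 RPKM. Both were lowest in replicate 1, unlike the other 8 members. In 4 of 4 libraries Mau2 was the higher one, with a log2(RPKM + 0.1) that exceeded that of Nipbl by 1.36 ± 0.063 (SD, n = 4).

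Among the genes that release cohesin or keep it on chromatin, Wapl was the most abundant of the release factors. Wapl, which opens the exit gate of the ring (ENSMUSG00000041408; chromosome 14, 34673928 to 34747983), had 25.5, 25.4, 27.1 and 20.7 RPKM in replicates 1 to 4. The paralogs Pds5a (ENSMUSG00000029202; chromosome 5, 65605721 to 65698273) and Pds5b (ENSMUSG00000034021; chromosome 5, 150673739 to 150810690) bind WAPL and also take part in SMC3 acetylation. Pds5a had 11.9, 11.6, 12.0 and 10.2 RPKM and Pds5b had 4.82, 4.83, 5.16 and 4.09 RPKM. Pds5a was 2.40-fold above Pds5b and higher in 4 of 4 libraries. Esco2, the acetyltransferase of S phase (ENSMUSG00000022034; chromosome 14, 65819038 to 65833994), had 59.2, 58.2, 58.5 and 49.1 RPKM.

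**Figure D1:**
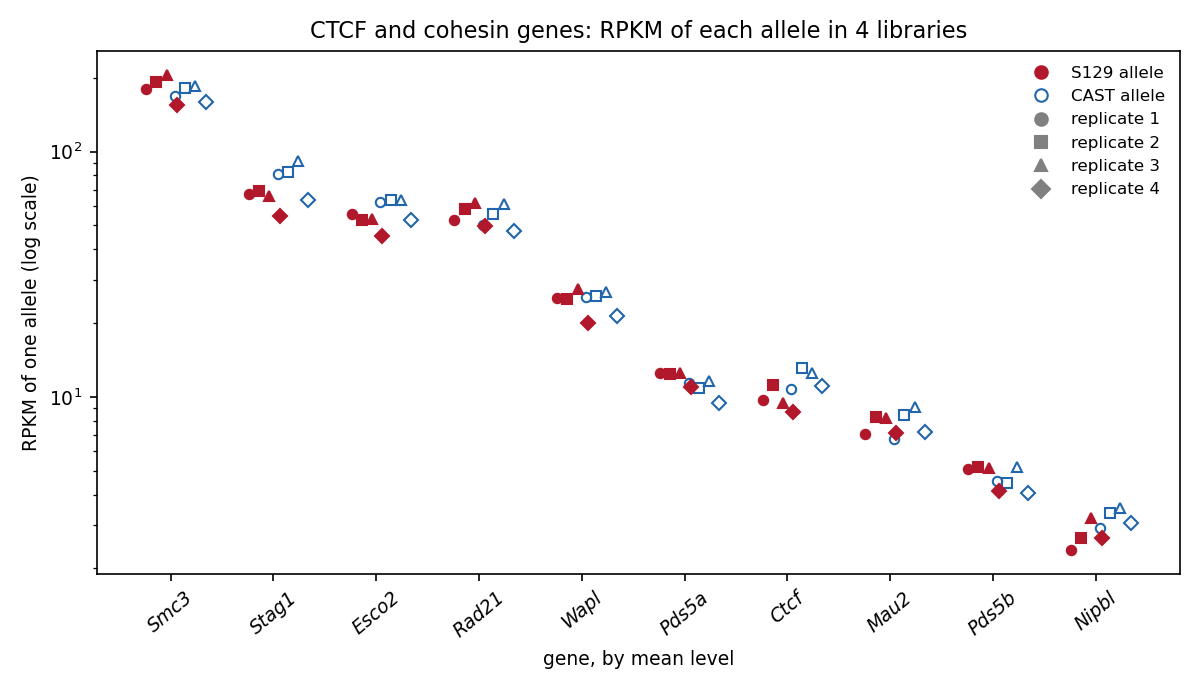
RPKM of one allele (log scale) for each gene, ordered by mean level, with S129 values as filled red symbols and CAST values as open blue symbols, 1 symbol shape per replicate. S129 and CAST values of each gene lie close together, from about 3 RPKM in Nipbl to over 150 RPKM in Smc3, and the diamonds of replicate 4 are the lowest on most genes.

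The order of the levels was Smc3, Stag1, Esco2, Rad21, Wapl, Pds5a, Ctcf, Mau2, Pds5b and Nipbl, over a 60.0-fold range. Each neighbouring pair, and 6 pairs of related genes, were compared within libraries by the two-sided exact sign-flip permutation test. With 4 libraries its smallest p is 0.13, which is 0.144 after Benjamini-Hochberg adjustment over the 15 pairs, so no pair could pass 0.05. The mean direction of the neighbouring pairs follows from the order, which was made from the same levels. In 13 of the pairs the same gene was higher in 4 of 4 libraries. The exceptions were Esco2 against Rad21, with a log2 ratio of 0.04 ± 0.12 (SD, n = 4; exact permutation p = 0.625), and Pds5a against Ctcf, at 0.09 ± 0.12 (SD, n = 4; exact permutation p = 0.375). These neighbours did not differ beyond their spread between libraries.

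This order depended on the gene length in the RPKM. The length that makes the reads of every column whole was 471 bp for Smc3 and 536 bp for Stag1, each an annotated transcript that is short for its gene. Over all annotated exons, Smc3 has 5541 bp and Stag1 11781 bp. For Ctcf the lengths were 1554 and 4860 bp, and for Esco2 2913 and 6648 bp, while Rad21, Wapl and Nipbl differed by less than 1.1 times. Whether reads were counted over the short transcript alone or over the whole gene is not stated in the sources used here, so either scale may be the closer one for a given gene.

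With the same reads divided by the length of all exons, the order became Rad21 (51.1 ± 5.51 RPKM, SD, n = 4), Esco2 (24.6 ± 2.10), Wapl (23.7 ± 2.66), Smc3 (15.2 ± 1.42), Pds5a (5.29 ± 0.39), Mau2 (4.57 ± 0.51), Ctcf (3.45 ± 0.32), Stag1 (3.28 ± 0.40), Pds5b (3.17 ± 0.30) and Nipbl (2.78 ± 0.28). The range shrank to 18.4-fold. Stag1 fell from the second place to the eighth and Smc3 from the first to the fourth. Rad21, which was 3.26-fold below Smc3 on the deposited scale, was 3.35-fold above it. Nipbl was last, Pds5b ninth and Ctcf seventh on both scales. On the exon scale Esco2 and Wapl, Ctcf and Stag1, and Stag1 and Pds5b were neighbours whose order was not the same in 4 of 4 libraries.

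**Figure D2:**
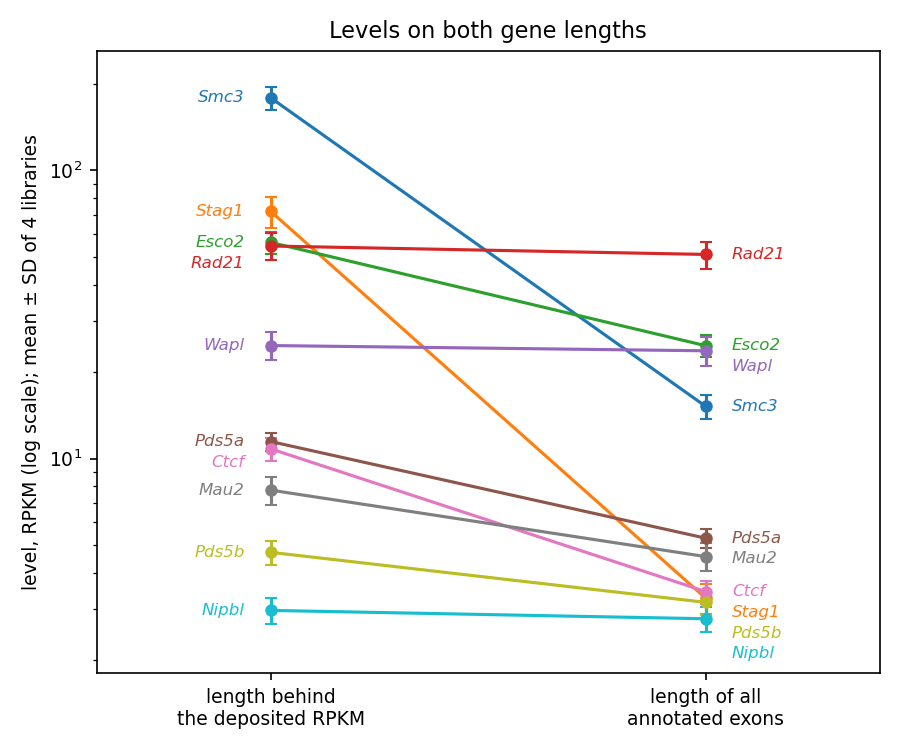
Level of each gene in RPKM (log scale; points are means and bars SD of 4 libraries) with the length behind the deposited values on the left and the length of all annotated exons on the right. Smc3 and Stag1 drop steeply, Rad21, Wapl and Nipbl stay nearly level, and the range narrows from 60.0-fold to 18.4-fold.

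Related genes kept their order on both scales in 5 of 6 pairs, Rad21 and Smc3 being the exception. Mau2 was above Nipbl and Pds5a above Pds5b on either length, by 1.62-fold and 1.65-fold on the exon scale. Wapl exceeded Nipbl by 8.05-fold on the deposited scale and by 8.23-fold over all exons. Esco2 exceeded Esco1, its paralog that acts through the whole cycle, by 12.7-fold and by 6.39-fold.

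Stag2, the other somatic STAG subunit, lies on the X chromosome, of which male cells have the S129 copy alone. It had 0.227 ± 0.026 RPKM on S129 (SD, n = 4) from 22 to 42 reads per library, so that Stag1 on S129 was higher by 7.62 on the log2 scale and in 4 of 4 libraries. With both alleles averaged, so that the absent CAST copy counts for Stag2, the log2 difference was 8.39 on the deposited length. Over all exons it was 4.18. The Stag2 averages of 0.114 and 0.085 RPKM lie near the added 0.1 RPKM, so these sizes depend on it. Smc1a, also X-linked and the partner of SMC3 in the ring, had 56.5 ± 7.76 RPKM on S129 and 0.064 RPKM on CAST. The number of SNPs in Stag2 was not analysed here and bears directly on how many of its reads could be assigned.

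The libraries differed in level both for the members and for the genes tested, and whether the members moved together beyond this was not tested. Replicate 4 was the lowest library for 8 of the 10 members, and replicate 3 the highest for 8. Replicate 3 was the highest for 39.7% and replicate 4 the lowest for 53.5% of the 13341 genes with a sum of at least 1 RPKM over both alleles, so the members' counts are to be read against these shares. With every library rescaled to one median over these genes, an alternative chosen after seeing the data, replicate 4 was lowest for 7 members and for 34.7% of the genes. On that scale replicate 3 was the highest for 4 members and replicate 1 for 5, with no share over all genes to set beside these counts. The SD between libraries was 7.37% of the mean in Pds5a to 12.1% in Stag1, with a median of 9.80% against 9.66% over the genes tested.

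The alleles were compared by limma on the S129 minus CAST difference of log2(RPKM + 0.1) within each library, over 13341 genes with Benjamini-Hochberg adjustment. Of the 10 members, all of which were tested, 4 were higher on CAST (Stag1, Ctcf, Nipbl and Esco2), 1 was higher on S129 (Pds5a), and 5 did not pass (Smc3, Rad21, Mau2, Wapl and Pds5b). Over all genes tested 62.7% were called, 31.4% higher on S129 and 31.3% higher on CAST, so 5 of 10 members is not above the background. The median difference of the members, all autosomal, was -0.025. That of autosomal genes tested was -0.021, and that of all genes tested was -0.003. The members differed by little: the median size was 0.13 against 0.29 over 12869 autosomal genes, and 48.6% of these had a larger difference than any member. In none of the 10 members did all S129 values lie apart from all CAST values, which was so for 45.6% of the genes tested.

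Ctcf was higher on CAST in 4 of 4 libraries. Its S129 allele had 9.75, 11.2, 9.41 and 8.65 RPKM in replicates 1 to 4. Its CAST allele had 10.8, 13.1, 12.5 and 11.1 RPKM. The highest S129 value, in replicate 2, exceeded the lowest CAST values, so the groups overlap, but within each library CAST was above S129. The difference was -0.28 on the log2 scale (95% interval -0.43 to -0.13, adjusted p = 0.0127 from limma), or 1.22-fold. Chromosome 8 as a whole leaned to CAST: after subtraction of each chromosome's median, the difference of Ctcf was -0.05 (adjusted p = 0.502 from limma).

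Stag1 had the largest difference of the members. The S129 values were 67.0, 69.1, 65.8 and 54.9 RPKM in replicates 1 to 4. The CAST values were 81.4, 82.4, 91.8 and 63.5 RPKM. Only the CAST value of replicate 4 fell among the S129 values. CAST was 1.24-fold higher (log2 difference -0.31, 95% interval -0.46 to -0.15, adjusted p = 0.00985 from limma, higher in 4 of 4 libraries).

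Of the loaders, Nipbl passed the test and Mau2 did not. Nipbl had 2.38, 2.66, 3.22 and 2.67 RPKM on S129 in replicates 1 to 4. On CAST it had 2.93, 3.36, 3.51 and 3.05 RPKM. Replicate 3 was the highest library on both alleles, and its S129 value lay within the CAST range. The difference of -0.23 (95% interval -0.36 to -0.10, adjusted p = 0.0137 from limma) was seen in 4 of 4 libraries. It did not pass without replicate 1 (adjusted p = 0.0564 from limma) or without replicate 2 (adjusted p = 0.0542 from limma).

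Mau2, in contrast, had 7.08, 8.27, 8.24 and 7.15 RPKM on S129 and 6.74, 8.43, 9.07 and 7.18 RPKM on CAST, so the S129 range lay within the CAST range. Its difference was -0.03 (95% interval -0.15 to 0.10, adjusted p = 0.654 from limma), with S129 higher in 1 of 4 libraries. Against the median of chromosome 8, Mau2 was higher on S129 by 0.21 (adjusted p = 0.0167 from limma). Whether Nipbl and Mau2 differ from each other in their allele difference was not tested.

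Esco2 had 55.9, 52.6, 53.2 and 45.3 RPKM on S129 in replicates 1 to 4 and 62.5, 63.7, 63.7 and 52.8 RPKM on CAST. Replicate 4 was the lowest on both alleles, and only there did CAST fall among the S129 values. CAST was 1.17-fold higher (log2 difference -0.23, 95% interval -0.32 to -0.14, adjusted p = 0.00530 from limma, higher in 4 of 4 libraries), the smallest adjusted p of the members.

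Pds5a was the only member higher on S129 by this test. Its S129 values were 12.5, 12.4, 12.5 and 11.0 RPKM in replicates 1 to 4, and its CAST values were 11.4, 10.9, 11.6 and 9.48 RPKM. S129 was above CAST in each library, and replicate 4 brought the groups to overlap. The difference was 0.16 (95% interval 0.07 to 0.25, adjusted p = 0.0153 from limma). Without replicate 1 the adjusted p was 0.0501 and without replicate 2 it was 0.0686, both from limma. Pds5b, its paralog, differed by 0.10 (95% interval -0.04 to 0.24, adjusted p = 0.159 from limma), with S129 higher in 3 of 4 libraries.

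The ring genes and Wapl were near equality. Rad21 had 52.4, 58.4, 62.0 and 49.5 RPKM on S129 and 50.2, 55.8, 61.3 and 47.4 RPKM on CAST. S129 was higher in 4 of 4 libraries, by 0.05 (95% interval -0.03 to 0.13, adjusted p = 0.197 from limma). Smc3 had 179, 192, 206 and 154 RPKM on S129 and 169, 182, 184 and 160 RPKM on CAST. Replicate 4 was the one library with CAST above S129, and the difference was 0.07 (95% interval -0.05 to 0.19, adjusted p = 0.256 from limma). Wapl had 25.4, 25.0, 27.6 and 20.0 RPKM on S129 and 25.5, 25.7, 26.7 and 21.4 RPKM on CAST, with a difference of -0.03 (95% interval -0.13 to 0.08, adjusted p = 0.594 from limma).

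**Figure D3:**
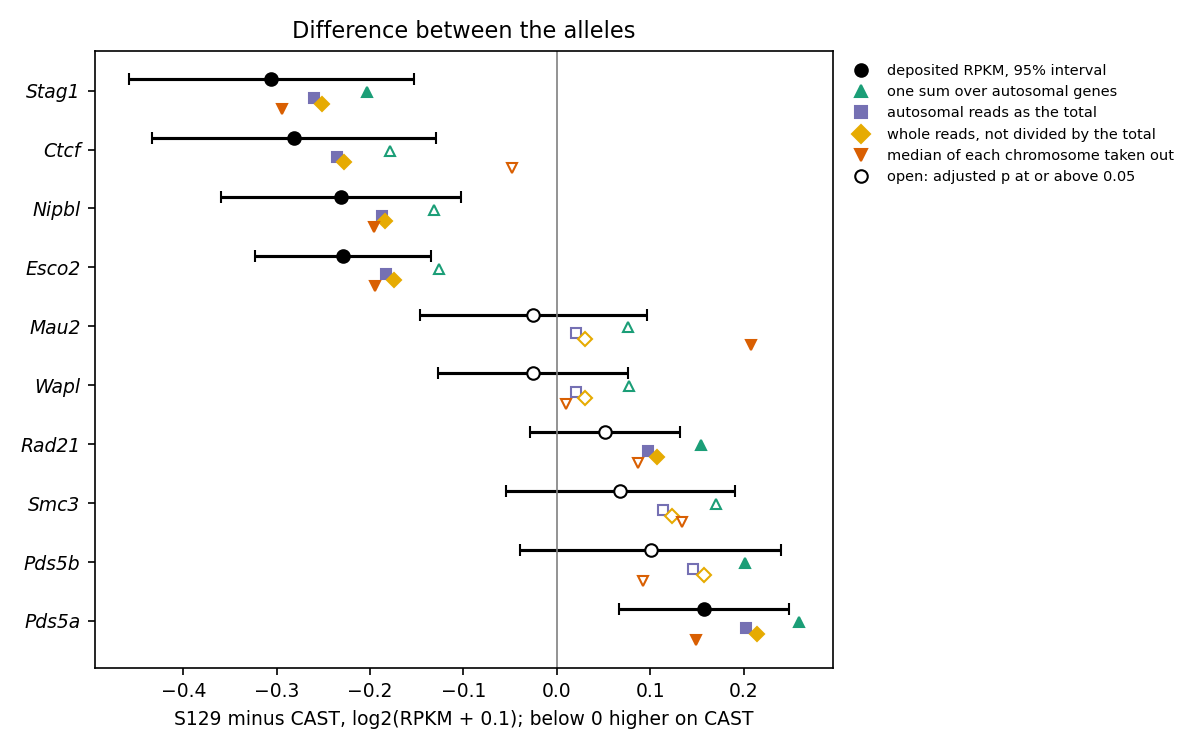
S129 minus CAST difference on the log2(RPKM + 0.1) scale for each gene, as deposited (black circles with 95% intervals) and under 4 other scalings (coloured symbols); filled symbols have an adjusted p under 0.05. Stag1, Ctcf, Nipbl and Esco2 lie below 0 under all 5, Pds5a lies above 0 under all 5, and Ctcf moves to -0.05 when the median of its chromosome is taken out.

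These calls depended on how the alleles were scaled to each other. With one sum of RPKM over the autosomal genes, the median of all genes moved from -0.003 to 0.10 and 4 members passed: Stag1 on CAST, and Rad21, Pds5a and Pds5b on S129. Among all genes 5121 were then higher on S129 and 3072 on CAST, against 4187 and 4182 as deposited. Relative to the median of all genes, Stag1 was -0.30 on both scales, Ctcf -0.28 on both and Pds5a 0.16 on both. With autosomal reads as the total, chosen after seeing the data, 6 members passed, Rad21 being added at 0.10 (adjusted p = 0.0436 from limma). The median of autosomal genes then moved from -0.021 to 0.024. Reads of the X chromosome, which male cells have from S129 alone, are in the deposited S129 total and not in this one. Without the replicate block, that is, with alleles not paired by library, 1 member passed, Ctcf (adjusted p = 0.0497 from limma).

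The recovered reads gave the share of each allele. The S129 share of the assigned reads was lowest in Stag1, at 45.5% (exact Clopper-Pearson 95% interval 44.3% to 46.6%, 7396 reads in 4 libraries), and highest in Pds5a, at 53.6% (52.9% to 54.3%, 19576 reads). Such intervals cover counting error only, since reads are not independent molecules. Ctcf had 46.3% (44.5% to 48.0%, 3188 reads), with 48.3%, 47.1%, 43.9% and 44.8% in replicates 1 to 4. Rad21, with the most reads at 41160, had 51.8% (51.3% to 52.3%) and the smallest spread, from 51.3% to 52.2% over the libraries. The median over 10946 autosomal protein-coding genes with at least 400 reads was 50.4%, with quartiles of 45.8% and 55.0%, and every member except Stag1 lay between these quartiles.

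The share of each member was set beside that of its chromosome and of its nearest genes. Ctcf and Mau2 both lie on chromosome 8, whose median share was 46.6%. Ctcf was 0.34 percentage points below this median, and 6 of its 20 nearest genes had a lower share. Mau2 at 50.4% was 3.84 points above it, and 12 of its 20 nearest genes had a lower share. Stag1 was 5.32 points below the 50.8% of chromosome 9, and 1 of its 20 nearest genes had a lower share. Smc3 was 2.81 points above the 49.6% of chromosome 19, and 15 of its 20 nearest genes had a lower share. Nipbl and Rad21 share chromosome 15, at 50.3%, with Nipbl 3.52 points below and Rad21 1.52 points above. Esco2 and Wapl share chromosome 14, also at 50.3%, with Esco2 3.31 points below and Wapl 0.36 points above. Members on one chromosome thus did not have one share, whereas Pds5a and Pds5b on chromosome 5 were both above its 51.1%, by 2.46 and 1.75 points. Near Pds5b, which lies close to the chromosome end, the 12 nearest genes had a median of 57.2%. Of these, 4 had a lower share than Pds5b. Among 20 nearest genes each, those with a lower share numbered 4 for Nipbl, 5 for Esco2, 11 for Wapl, 12 for Pds5a and 13 for Rad21.

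**Figure D4:**
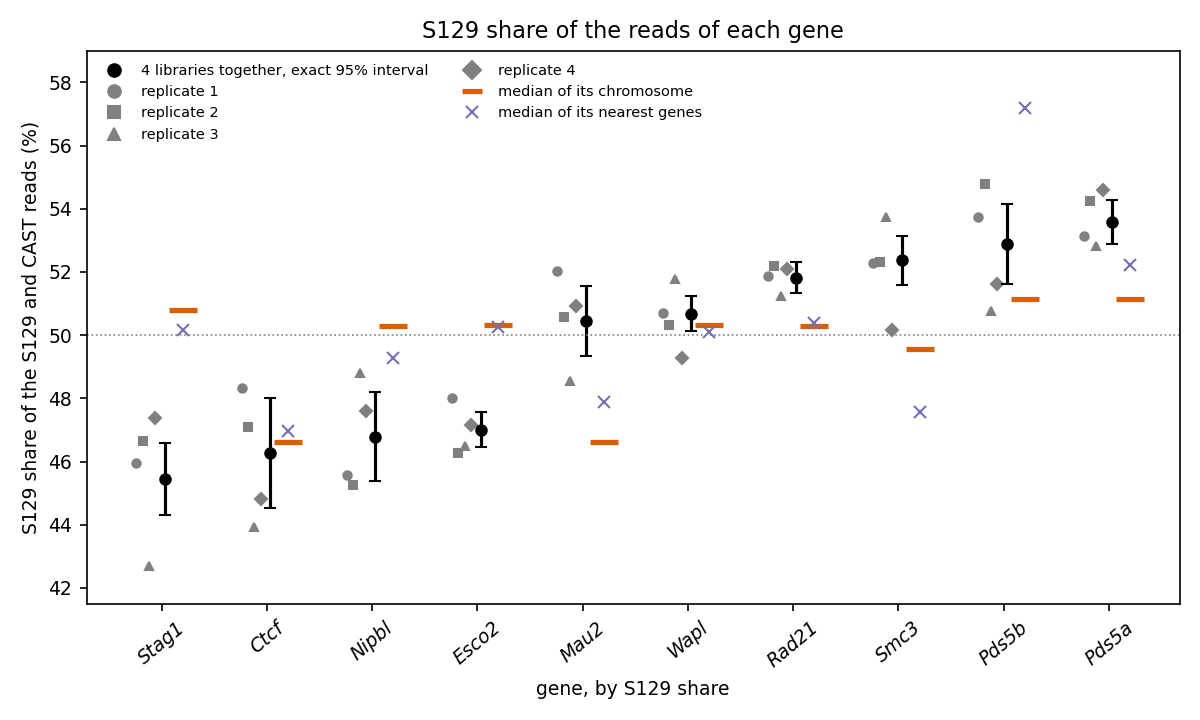
S129 share of the assigned reads in percent for each gene, with the 4 libraries as grey symbols, all libraries together as black circles with exact 95% intervals, the median of the gene's chromosome as an orange bar and that of its nearest genes as a cross. Ctcf sits near the median of its chromosome, Stag1, Nipbl and Esco2 sit below theirs, and Mau2 and Smc3 sit furthest above.

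The other genes of these complexes were taken from a list of 29, of which 24 were tested. On the autosomes 23 were tested, 6 were higher on S129, 7 were higher on CAST and 10 did not pass, against 62.7% called over all genes tested. Esco1, the paralog of Esco2, was higher on CAST by less (-0.13, SE 0.036, adjusted p = 0.0366 from limma). Differences larger than those of any member, which 48.6% of autosomal genes had, were seen in some of the germline and mitotic genes, while Smc1b (0.10), Cdca5 (-0.04) and Espl1 (-0.03) did not pass. Stag3, the meiotic STAG subunit, had 12.2 ± 1.29 RPKM on S129 and 2.04 ± 0.21 RPKM on CAST (SD, n = 4 each), a log2 difference of 2.52 (adjusted p = 1.7e-05 from limma). Ctcfl, the germline paralog of CTCF, was low, at 0.953 ± 0.173 and 0.405 ± 0.054 RPKM, and higher on S129 by 1.05 (adjusted p = 0.00218 from limma). Rec8, the meiotic counterpart of RAD21, was higher on S129 by 0.88 (adjusted p = 0.000352 from limma).

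Of 5 listed genes of cohesin protection and cleavage at mitosis, 1 was higher on S129, 2 were higher on CAST and 2 did not pass. Pttg1, which encodes securin, the inhibitor of the protease that cuts RAD21, had 361 ± 72.7 RPKM on S129 and 643 ± 121 RPKM on CAST, a log2 difference of -0.84 (adjusted p = 5.8e-05 from limma). Sgo2a, a shugoshin that protects centromeric cohesin, was higher on S129 by 0.64 (adjusted p = 0.000162 from limma). Smc4, a core subunit of condensin, was higher on CAST by 1.02 on the log2 scale (log2 difference -1.02, adjusted p = 4.5e-05 from limma), and with the median of chromosome 3 taken out the difference was -0.30 (adjusted p = 0.00198 from limma). Ldb1, which bridges enhancers and promoters, was higher on S129 by 1.88 (adjusted p = 0.000107 from limma). Each of the 7 genes named here kept the same order of alleles in 4 of 4 libraries, and Ncaph2 was listed at 0 on both alleles.

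**Figure D5:**
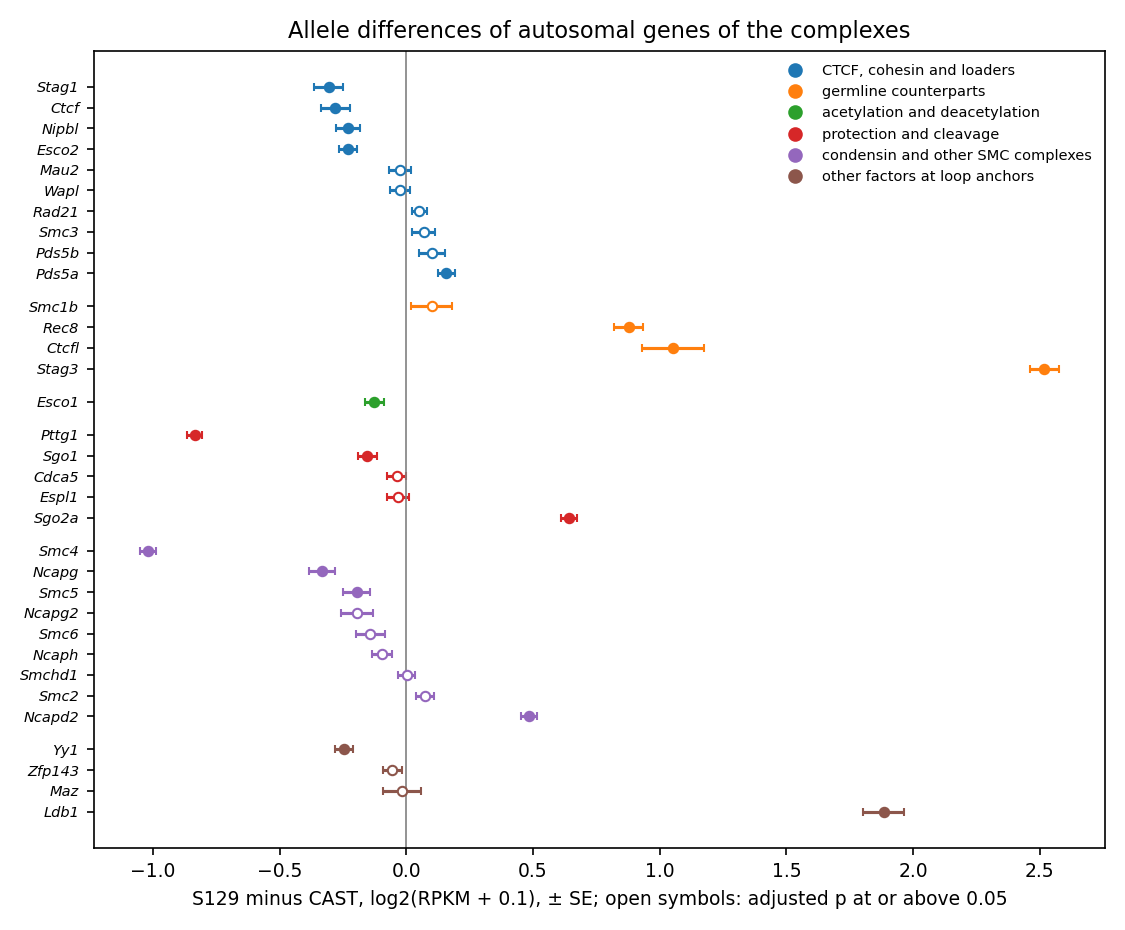
S129 minus CAST difference on the log2(RPKM + 0.1) scale with its standard error, for the 10 members (top, blue) and 23 other autosomal genes of the complexes, coloured by list; filled symbols have an adjusted p under 0.05. The members lie between -0.31 and 0.16, while Stag3, Ldb1 and Ctcfl reach 1.05 to 2.52 and Smc4 and Pttg1 lie below -0.8.

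The protein-coding genes with values most like those of Ctcf over the 8 columns were Cyb561a3, Tti2 and Kcnk5. Their root mean square distance on the log2(RPKM + 0.1) scale was 0.066, 0.080 and 0.089. Such closeness was common, since 211 protein-coding genes outside the members lay within 0.2.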

How the data were processed

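RNA was polyA-enriched and sequenced with stranded TruSeq libraries and paired reads of 150 bp from 4 samples of untreated F123-ESCs. The authors removed ribosomal reads with SortMeRNA, trimmed with Trimmomatic (version 0.40, per the submitters' processing notes), aligned with STAR to mm10 masked at SNPs, and split reads into S129 and CAST with SNPsplit. The RPKM of each allele were deposited by the authors, normalized to gene length and total reads. The read counter and annotation are not given in the sources used here. The authors' averages over libraries and their log10 values were not used.

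Columns were matched to libraries by allele and number. Genes were matched to GENCODE M21 on mm10 by identifier (23995 of 24026). Reads were recovered from the steps between RPKM values, with the length of the first annotated transcript for 7 members, of another for Smc3 and Mau2 and by a search for Nipbl; 99.5% of the 20243 genes above 0 came out whole within 0.02 reads. For a length found by a search the reads are the fewest possible.

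Levels are means of both alleles. Alleles were compared with limma (version 3.58.1, R 4.3.3) on differences within a library, at a pseudocount of 0.1 and with genes of at least 1 RPKM over both alleles, at an adjusted p of 0.05. A count model was not used, since the deposited values are RPKM. The recovered reads were used for the shares and for a limma alternative on log2 reads, and no count model was fitted to them. Both alleles of a number are reads of one library, which pairs them. Their deviations from the allele means correlated at 0.105 to 0.195 across 13341 genes, against -0.155 to 0.140 for different numbers. These ranges overlap, so the correlations alone do not settle the pairing, which rests on the column names. Pairs of genes were compared by the exact sign-flip test. The recovery and limma were tested on simulated data. In those for limma, library variation was drawn as shared by both alleles, so they do not test the pairing.

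The members and the lists were chosen with earlier results of these data known. Named genes were all members, Smc1a, Stag2, Esco1, autosomal genes of the list called with a log2 difference of at least 0.5, and the 3 genes nearest to Ctcf. Shares were computed with scipy 1.17.1.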

Additional observations from a re-analysis of the deposited data

Results flagged for a closer look

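The level of Esco2 in replicate 4, 49.1 RPKM, lay apart from the other libraries, which had 58.2 to 59.2 RPKM. Its gap to the nearest library was 0.898 of the whole range, above Dixon's critical value at 95% for 4 samples. Levels and S129 shares of the 10 members gave 20 such checks and chance flags about 1 in 20, and 1 of the 20 passed. Replicate 4 was also the lowest library for 7 other members, and it had the fewest reads.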

How the results depend on the processing

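Over the alternatives, the number of genes called between the alleles stayed within 1.5 times the 8369 of the deposited values, from 6425 without the replicate block to 8680 with a variance trend, and the pseudocount, the filter on low values and the variance trend left the same number of members called. The number of members called was 1 without the replicate block and 3 to 5 with each library left out in turn. The number higher on CAST was 1 with one sum over autosomal genes and 1 without the replicate block. The only called sign change was Mau2, at 0.21 after subtraction of each chromosome's median. For Mau2 and Wapl, which did not pass, the sign also depended on scaling, at 0.08 for both with one sum over autosomal genes.

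Ratios of levels changed sign with the length of all annotated exons in Stag1 to Esco2 (log2 ratio -2.88), Esco2 to Rad21 (-1.05), Ctcf to Mau2 (-0.39) and Rad21 to Smc3 (1.74). Esco2 to Rad21 was also -0.10 on S129 alone and -0.011 without replicate 1, the lowest of -0.011 to 0.083 with each library left out, and Pds5a to Ctcf was -0.13 on CAST alone. Levels and ratios moved by more than their SD between libraries with no change of sign in 34 of 210 comparisons with an alternative, changed sign in the 7 given here and moved less in 169, and the S129 shares stayed within their interval or SD in all 50. Depth limits Ctcf most, with as few as 234 reads on an allele.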
